A study of Homo sapiens with 15 samples.

Results

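The 10 listed genes of WNT signalling were followed over 5 human neuroblastoma cell lines: the receptors LGR5 and FZD7, the ligand WNT5A, the secreted proteins DKK1 and DKK3, the TCF/LEF transcription factors LEF1, TCF7, TCF7L1 and TCF7L2, and the feedback gene AXIN2. The genes were taken from a list chosen with earlier results of these data known, and every probe set that named only 1 of them was used. Of the 10 genes, 9 had such a probe set and TCF7 was not analysed here. The 9 genes had 39 probe sets among 45277 that named 1 gene, and they were 9 of the 18244 genes with a value. All 9 were among the 12721 genes bright enough to be tested, which means that the highest line mean of the gene reached the median of all values, an intensity of 80.6.

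WNT proteins are secreted ligands that bind Frizzled receptors. In the canonical branch, binding to Frizzled and an LRP co-receptor stops the destruction complex, in which AXIN proteins are scaffolds, from degrading beta-catenin, and beta-catenin then acts in the nucleus through TCF/LEF factors. Other branches, for which WNT5A is the best known ligand, work through Frizzled and ROR receptors without beta-catenin and steer cell shape and movement. In the neural crest, from which neuroblastoma arises, WNT signals take part in induction and in migration.

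NGP, BE(2)-C and KELLY carry an amplified MYCN gene, and SH-SY5Y and SK-N-AS do not. These assignments come from general knowledge of the lines. BE(2)-C and SH-SY5Y are each a clonal subline, so 1 clone stands for a tumour. Every line was grown untreated in DMEM with 10% fetal bovine serum, and total RNA was measured on 3 oligonucleotide arrays per line, 15 in all, with no further treatment or genotype named. The replicate numbers of the arrays do not say whether separate cultures were used, so p-values reflect the spread among the arrays alone, and that spread may be technical.

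Values are deposited intensities on a linear scale. The median intensity of an array ran from 51.9 to 126, lowest in SH-SY5Y and highest in SK-N-AS. The arrays thus had no common median. The median ERCC spike-in probe set ran from 4.69 to 4.92 on the log2 scale. That is below the test intensity (log2 of 6.35), so its steadiness cannot show how the arrays were scaled. Arrays were also centred on the ERCC sets that reached the test intensity. The median gene of NGP minus SK-N-AS was then -0.79, beside -0.70 on the deposited scale. For NGP minus SH-SY5Y it was 0.39, beside 0.52. How the deposited values were scaled was not tested. Values after every array was centred on the median of the tested genes are given beside the results for the listed genes. Between lines the median gene differed by up to 1.23 on the log2 scale, the gap between SH-SY5Y and SK-N-AS. The lowest correlation between arrays of 1 line was 0.993, and 0 pairs of arrays were identical. As a check of the classes, MYCN lay between 9363 ± 163 and 13689 ± 526 over the amplified lines, against 78.8 ± 6.30 and 152 ± 30.2 over the other lines (SD, n = 3 each), and MYC between 30.2 ± 1.72 and 81.0 ± 12.7, against 1746 ± 145 and 1788 ± 128. Of 8 adrenergic neuroblastoma markers, 7 were measured, and all 7 reached the test intensity in every line, at unequal levels. DBH read 96.0 ± 4.78 in SK-N-AS, against 778 ± 40.9 to 2435 ± 251 in the others. PHOX2A (302 ± 17.9), ISL1 (441 ± 33.5), GATA3 (1710 ± 89.7) and GATA2 (2881 ± 118, beside 3108 ± 58.4 in NGP) were also lowest in SK-N-AS. HAND2 was highest there, at 11583 ± 772, and TH was lowest in SH-SY5Y, at 91.1 ± 16.3. The 7 mesenchymal-state markers all reached it in SK-N-AS, whereas 4, 2, 3 and 4 did in NGP, BE(2)-C, KELLY and SH-SY5Y.

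The stretch of DNA just before a gene's start is where many regulators bind. RefSeq promoter sequences of GRCh38.p14 were matched for 6 of the 10 genes, 10 promoters in all, and the 250 bases before each start were searched on both strands for CTTTGAT and CTTTGAA, 2 forms of the short element that TCF/LEF factors bind. Shown are the promoter of DKK1, the only one of the 10 with a match, and the first promoters of LEF1 and WNT5A, a TCF/LEF factor and the ligand among the 10 genes. They lie at chr10:52314031-52314280 on the plus strand for DKK1, chr4:108166302-108166551 on the minus strand for LEF1 and chr3:55487307-55487556 on the minus strand for WNT5A. Each is read 5′ to 3′ on the strand of its gene, and capitals mark the match.
DKK1 promoter: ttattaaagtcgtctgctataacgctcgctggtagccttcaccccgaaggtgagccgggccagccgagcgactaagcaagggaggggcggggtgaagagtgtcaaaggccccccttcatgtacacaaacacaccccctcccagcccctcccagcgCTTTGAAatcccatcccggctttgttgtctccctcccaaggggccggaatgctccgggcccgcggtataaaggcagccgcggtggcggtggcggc
LEF1 promoter: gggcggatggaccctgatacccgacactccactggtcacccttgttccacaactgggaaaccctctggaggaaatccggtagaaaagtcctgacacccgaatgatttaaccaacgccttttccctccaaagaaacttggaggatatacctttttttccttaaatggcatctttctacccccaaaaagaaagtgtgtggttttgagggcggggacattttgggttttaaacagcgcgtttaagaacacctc
WNT5A promoter: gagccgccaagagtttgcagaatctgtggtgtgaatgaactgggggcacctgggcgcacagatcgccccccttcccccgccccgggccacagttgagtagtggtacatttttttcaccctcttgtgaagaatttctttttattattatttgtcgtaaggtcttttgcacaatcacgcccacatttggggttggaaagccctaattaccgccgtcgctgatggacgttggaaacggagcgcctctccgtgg
In DKK1 the capitals spell CTTTGAA, from 95 to 89 bases before the start. Either element was present in 5.94% of 35116 promoters of the same length, CTTTGAT in 2.26% and CTTTGAA in 3.8%. A match of this kind is a description of letters, not a binding site. LGR5, AXIN2, DKK3 and FZD7 are named only.

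Over the 9 genes and the 10 pairs of lines, 62 of 90 differences were called, where a call required an adjusted p under 0.05 and a difference of at least 1 on the log2 scale. Over all genes tested, 37.7% of such differences were called (limma on log2 of intensity plus 1, Benjamini-Hochberg adjustment within each pair). All 9 genes had at least 1 called pair, as had 91.4% of all genes. The line means of 7 of the 9 genes spanned at least 2 on the log2 scale, which 36.2% of all genes did. Of the 9 genes, 7 marked a line, meaning that the line was called apart from each of the 4 others, always in 1 direction, and 25.5% of all genes did so. Only LGR5, FZD7, WNT5A and DKK3 marked a line after centring, beside 19% of all genes. After centring, 57 differences were called against 20.8% over all genes. Of these 57, 52 had been called on the deposited scale. No pair called on both scales turned direction, but some pairs that lost their call changed sign, as given below. The list was chosen with earlier results of these data known. Its counts, here and below, describe the genes and are no test against all genes.

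**Figure D1:**
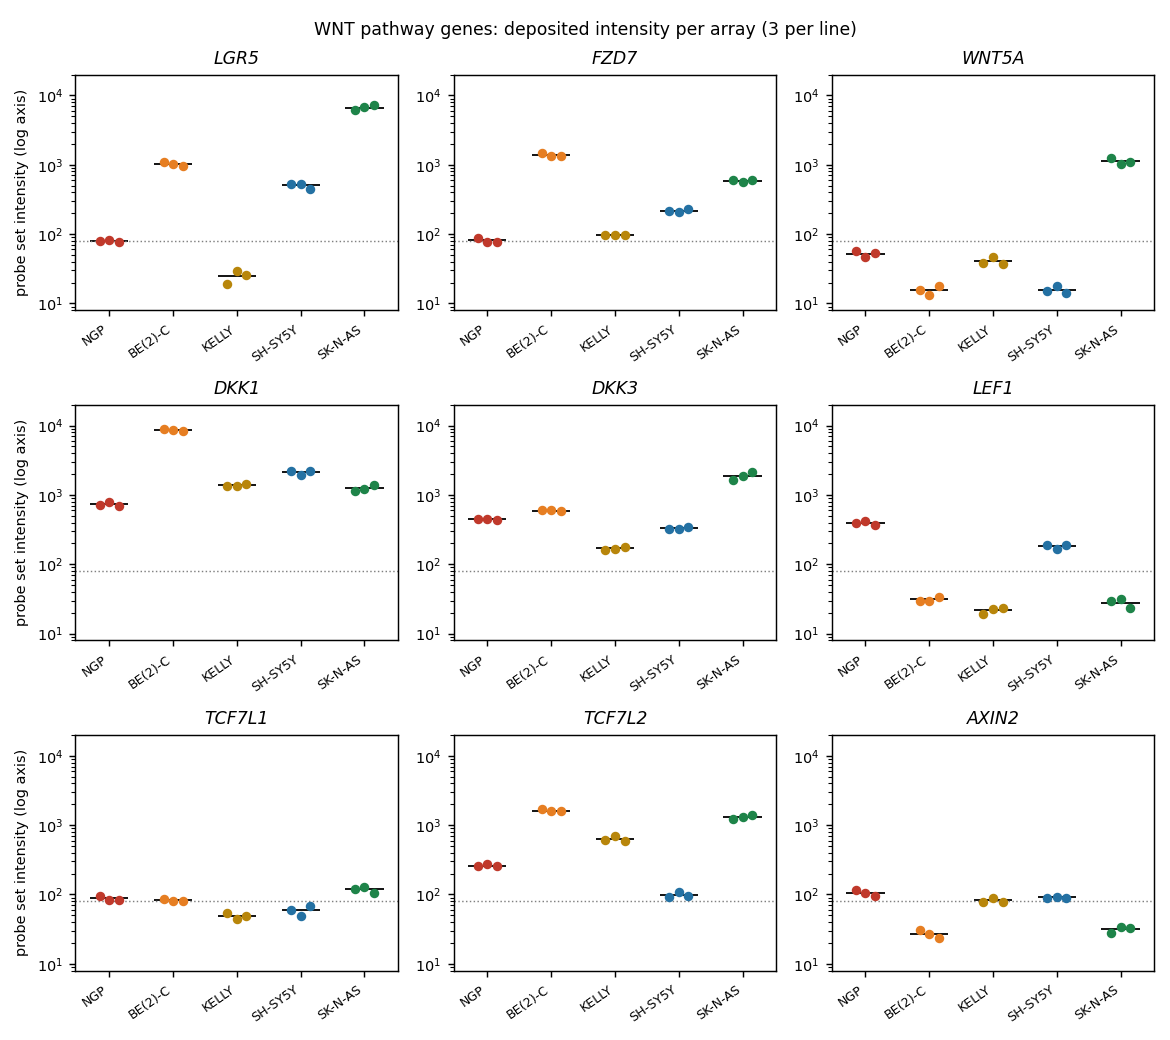
Deposited intensity (log axis) of the 9 measured WNT genes on each of the 15 arrays, with 1 panel per gene, 3 points per line and a bar at the line mean. The dotted line is the test intensity of 80.6. LGR5 and WNT5A are highest in SK-N-AS, FZD7 and DKK1 in BE(2)-C and LEF1 in NGP, and the 3 points of a line lie close together beside the distances between lines.

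LGR5, a receptor for R-spondins that raises the cell's response to WNT and is best known as a marker of intestinal stem cells, had the widest range of the 9 genes. Its intensity was 6196, 6703 and 7177 in SK-N-AS, against 79.8, 83.3 and 77.9 in NGP, 1085, 1020.4 and 954 in BE(2)-C, 19.0, 29.1 and 25.9 in KELLY, with 529, 531 and 448 in SH-SY5Y. Every SK-N-AS array was above every other array, every KELLY array was below every other array, and no 2 lines overlapped. SK-N-AS was higher than each other line by at least 2.71 on the log2 scale (highest adjusted p = 3.44e-17, limma), and 12.6% of all genes marked SK-N-AS as higher. KELLY was lower than each other line, with a smallest difference of -1.68 (highest adjusted p = 1.23e-12), and 1.74% of all genes marked KELLY as lower. All 10 pairs were called, and the line means spanned 264-fold, or 8.05 on the log2 scale. The KELLY values lay near those of background control probe sets, whose median was 16.8 in KELLY, so the fold understates the change.

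A single step in the LGR5 order depended on the scale. BE(2)-C exceeded SH-SY5Y by 1.02 (SE 0.11, adjusted p = 4.35e-09, limma), but by -0.11 after centring, where the pair was not called. Without BE(2)-C replicate 1 the difference was 0.98 and without SH-SY5Y replicate 3 it was 0.94, and in both cases the call was lost. The marks of SK-N-AS and KELLY were called after centring too, at 2.40 (5.61% of all genes then marked SK-N-AS as higher) and -1.39 (0.912% marked KELLY as lower). The second LGR5 probe set was dimmer and gave 1125 ± 64.7 in SK-N-AS, against 39.3 ± 8.15 in NGP, 167 ± 5.08 in BE(2)-C, 31.2 ± 3.96 in KELLY and 101 ± 14.5 in SH-SY5Y (SD, n = 3 each). Its order of lines was the same, and 8 of its 10 pairs were called. The exceptions were NGP minus KELLY at 0.31 (adjusted p = 0.0415 over all probe sets) and BE(2)-C minus SH-SY5Y at 0.72 (adjusted p = 2.46e-05).

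FZD7, a Frizzled receptor of WNT ligands, was highest in BE(2)-C. Its intensity was 1498, 1342 and 1335 in BE(2)-C, against 88.5, 77.1 and 77.8 in NGP, 95.6, 95.5 and 98.0 in KELLY, 213, 211 and 228 in SH-SY5Y, with 596, 570.4 and 596 for SK-N-AS. The BE(2)-C arrays were all above the rest, and the only lines close to each other were NGP and KELLY, whose arrays still did not overlap. BE(2)-C was higher than each other line by at least 1.24 (highest adjusted p = 5.53e-13, limma) and by at least 1.44 after centring. Of all genes, 3.46% marked BE(2)-C as higher, and 1.11% after centring. NGP minus KELLY, the pair of neighbours at the low end, was -0.25 (SE 0.08, adjusted p = 0.00887) and was not called.

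The other FZD7 probe set that was tested had its highest mean, 1187 ± 53.5, in BE(2)-C, against 86.7 ± 2.73 in NGP, 113 ± 19.9 in KELLY, 185 ± 9.98 in SH-SY5Y, with 593 ± 32.2 for SK-N-AS. With it, BE(2)-C exceeded SK-N-AS by 1.00066, just past the limit of a call, and KELLY minus SH-SY5Y at -0.72 fell short of it. The step from SH-SY5Y to SK-N-AS, a difference of -1.43 (SE 0.08, adjusted p = 1.18e-14), was -0.1 after centring and no longer called.

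WNT5A encodes the ligand that acts mainly without beta-catenin. Intensity was 1267, 1040.0 and 1107 in SK-N-AS, against 57.6, 46.0 and 53.3 in NGP, 15.4, 13.1 and 17.6 in BE(2)-C, 38.2, 46.8 and 37.5 in KELLY, and 15.02, 17.59 and 13.99 in SH-SY5Y. SK-N-AS stood far above the rest, and the other 4 lines were all below the test intensity, with NGP overlapping KELLY and BE(2)-C overlapping SH-SY5Y. SK-N-AS was higher than each other line by at least 4.42 (highest adjusted p = 4.62e-20, limma), and by at least 3.60 after centring. BE(2)-C and SH-SY5Y differed by -0.02 (95% interval of SH-SY5Y over BE(2)-C from -0.26 to 0.30) and were close to the median of the background control probe sets, which was 17.2 in BE(2)-C and 16.5 in SH-SY5Y. A difference between these 2 lines was not detectable in these intensities.

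Both other tested WNT5A probe sets were also highest in SK-N-AS, at 207 ± 13.4 and 309 ± 9.31. In the remaining lines the first ran from 19.8 ± 4.38 in SH-SY5Y to 33.5 ± 7.74 in BE(2)-C, and the second from 13.1 ± 0.733 in SH-SY5Y to 33.9 ± 1.22 in NGP. All 4 contrasts with SK-N-AS were called for each of the 3 tested probe sets. Among the dim lines the probe sets did not share an order: BE(2)-C was below NGP in the brightest set, with a difference of NGP minus BE(2)-C of 1.71, and above it in another, at -0.26 (adjusted p = 0.159). SK-N-AS was the line where all 7 mesenchymal-state markers (VIM, FN1, YAP1, PRRX1, SNAI2, TWIST2 and NOTCH2) were brightest. The sum of the 7 markers was 20371 to 22989 in SK-N-AS arrays, against 777 to 4701 in the arrays of the other lines. Most of the sum in SK-N-AS was VIM, which read 17794 ± 1163 there. The part of these markers in the LGR5, WNT5A and DKK3 levels was not tested. PTPRC, a leukocyte marker, read 320.0 ± 24.6 in SK-N-AS, against 12.8 ± 3.37 to 14.7 ± 2.17 elsewhere, while CD3E and CD14 stayed under the test intensity in all 5 lines.

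**Figure D2:**
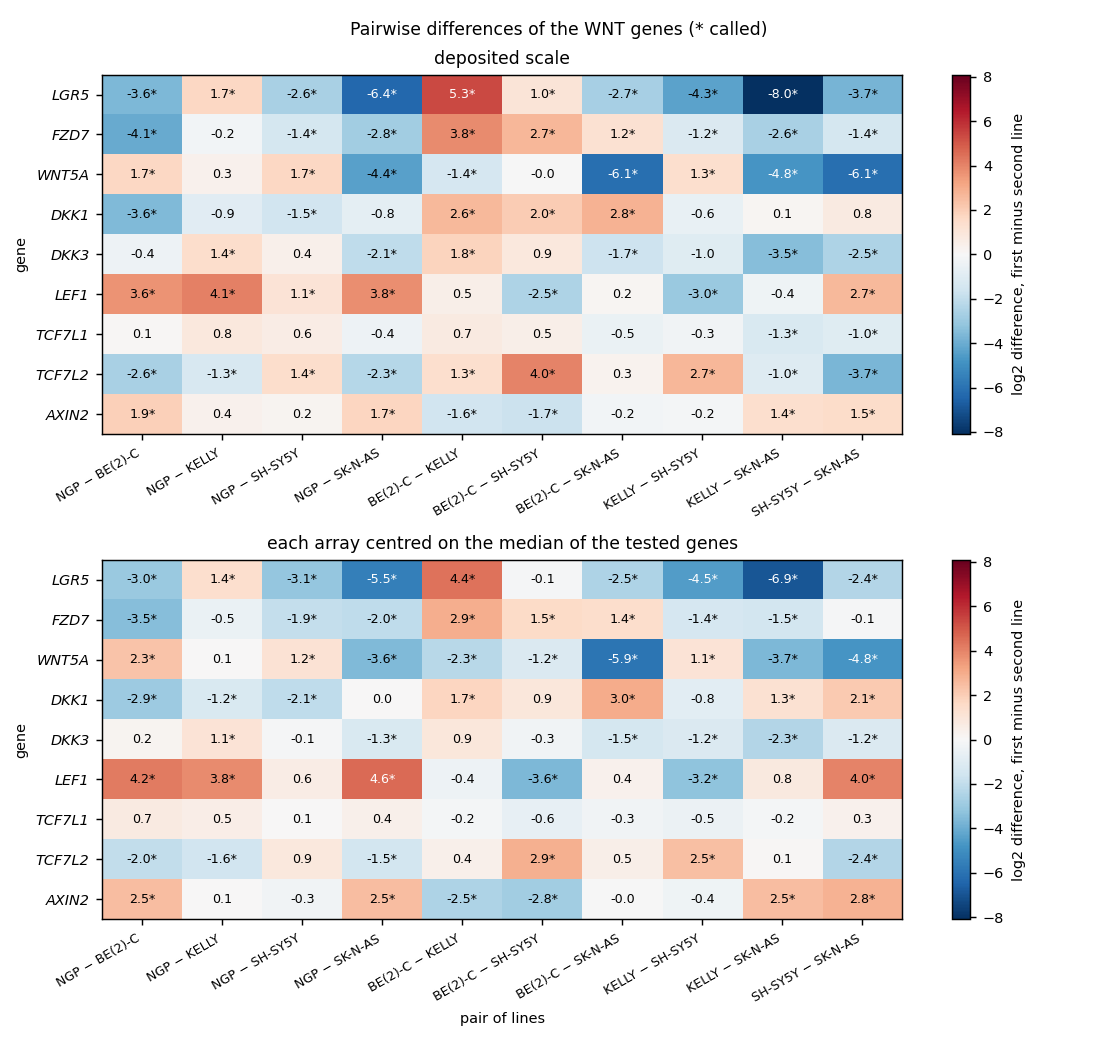
Differences of the 9 genes for the 10 pairs of lines, on the log2 scale, first minus second line, on the deposited scale (upper panel) and after centring (lower panel), with a star for a called pair. The contrasts of LGR5 and WNT5A with SK-N-AS are called in both panels, and the 2 called pairs of TCF7L1 are called in the upper panel only.

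DKK1, a secreted antagonist that binds LRP co-receptors and is itself a target of beta-catenin in many cells, was bright in every line. Its intensity was 8791, 8669.7 and 8454 in BE(2)-C, against 708, 792 and 692 in NGP, 1368, 1338 and 1443 in KELLY, 2188, 1951 and 2204 in SH-SY5Y, with 1149, 1208 and 1402 for SK-N-AS. BE(2)-C was apart from all others, NGP was the lowest line, and KELLY and SK-N-AS overlapped. BE(2)-C was higher than each other line by at least 2.03 (highest adjusted p = 2.05e-17, limma). After centring, its difference from SH-SY5Y was 0.90 and below the limit of a call, while the other 3 contrasts were called. KELLY and SK-N-AS differed by 0.15 (95% interval from -0.02 to 0.31, adjusted p = 0.0869) on the deposited scale, but by 1.26 after centring, where the pair was called (adjusted p = 2.34e-13). Centring also brought calls to SH-SY5Y minus SK-N-AS, which was 0.76 on the deposited scale and 2.09 centred, and to NGP minus KELLY, which was -0.92 on the deposited scale and -1.22 centred. DKK1 had 1 probe set. BE(2)-C, the line brightest for FZD7 and DKK1, was also the brightest for CDH5, an endothelial marker, at 231 ± 7.20, against 23.7 ± 0.849 to 42.5 ± 5.69 in the other lines, and for KRT19, an epithelial one, at 358 ± 28.6, against 41.2 ± 3.68 to 106 ± 11.3. Of the other endothelial markers, PECAM1 read 105 ± 8.11 in BE(2)-C and 92.5 ± 3.06 in SK-N-AS. KDR was under the test intensity in all lines and brightest in SK-N-AS, at 77.2 ± 10.3. The epithelial markers EPCAM and CDH1 were under the test intensity in all lines. The part of the CDH5 and KRT19 signals in the FZD7 and DKK1 levels was not tested.

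DKK3, related to DKK1 in sequence but not an established antagonist of LRP co-receptors, was highest in SK-N-AS. Its intensity was 1667, 1873 and 2120.2 in SK-N-AS, against 455, 448 and 438 in NGP, 604, 599.9 and 581 in BE(2)-C, 163, 166 and 180.4 in KELLY, and 320.4, 321 and 346 in SH-SY5Y. No 2 lines overlapped, and KELLY was the lowest line. SK-N-AS was higher than each other line by at least 1.66 (highest adjusted p = 2.54e-15, limma) and by at least 1.18 after centring. The neighbours below SK-N-AS differed by less than the limit of a call: BE(2)-C exceeded NGP by 0.41 (95% interval from 0.24 to 0.58), and NGP exceeded SH-SY5Y by 0.44 (95% interval from 0.27 to 0.61). Both turned sign after centring, when NGP minus BE(2)-C was 0.20 and NGP minus SH-SY5Y was -0.08. BE(2)-C minus KELLY, called at 1.80364, was 0.89 after centring and not called, while KELLY minus SH-SY5Y was -0.95 and not called, but -1.17 and called after centring.

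A further 3 DKK3 probe sets were tested, and all were highest in SK-N-AS, at 236 ± 19.4, 198 ± 8.598 and 243 ± 9.54. Their lowest line was SH-SY5Y, at 60.1 ± 4.62, 57.3 ± 0.459 and 61.8 ± 2.05, whereas KELLY was lowest in the brightest set. In KELLY the same 3 sets gave 65.3 ± 7.39, 65.1 ± 5.84 and 78.7 ± 3.64. None of them was called in the direction opposite to the brightest set. In these sets BE(2)-C minus SK-N-AS was -0.99, -0.68 and -0.84 and was not called, so the mark of SK-N-AS against all 4 other lines rested on the brightest set.

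LEF1 encodes the factor of the TCF/LEF family that often rises where beta-catenin is active. Intensity was 388, 415 and 368 in NGP, against 30.01, 29.8 and 33.5 in BE(2)-C, 19.3, 22.5 and 23.1 in KELLY, 187, 165 and 191 in SH-SY5Y, with 29.3, 31.5 and 23.3 for SK-N-AS. NGP was the highest line and SH-SY5Y the second, both clear of the rest, and the arrays of SK-N-AS overlapped those of BE(2)-C. NGP was higher than each other line by at least 1.10 (highest adjusted p = 8.56e-09, limma), and 1.67% of all genes marked NGP as higher. The smallest of these differences, with SH-SY5Y, was 0.59 after centring and not called, while NGP against BE(2)-C, KELLY and SK-N-AS stayed called at 4.2, 3.8 and 4.6.

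SH-SY5Y exceeded SK-N-AS in LEF1 by 2.66 (SE 0.12, adjusted p = 1.08e-16, limma), and by 4.0 after centring. This ran against the median of all genes, which was -1.23 for SH-SY5Y minus SK-N-AS. Of 9 LEF1 probe sets, 2 were tested. The second gave 85.3 ± 4.80 in NGP, against 18.8 ± 3.36 in BE(2)-C, 20.8 ± 1.797 in KELLY, 53.0 ± 12.6 in SH-SY5Y, with 20.4 ± 3.25 for SK-N-AS, and with it NGP minus SH-SY5Y was 0.70 (adjusted p = 0.000689) and was not called. Of the 7 LEF1 sets too dim to be tested, with line means from 10.2 to 76.9, 6 were also highest in NGP. When all probe sets of a gene were averaged, LEF1 itself fell below the test intensity.

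TCF7L2, the family member best known in the intestine and in diabetes genetics, had a different order of lines from LEF1. Its intensity was 92.0, 108 and 96.3 in SH-SY5Y, against 254, 276 and 254 in NGP, 1685, 1574 and 1578 in BE(2)-C, 616, 707 and 585 in KELLY, with 1239, 1289 and 1398 for SK-N-AS. SH-SY5Y was below every other array, BE(2)-C was above every other array, and no 2 lines overlapped. The differences of SH-SY5Y from each other line were -1.40 or larger in size (highest adjusted p = 2.16e-13, limma), and 3.95% of all genes marked SH-SY5Y as lower. After centring, the difference from NGP was -0.88 and not called, and the remaining contrasts of SH-SY5Y were called. Centring also took the call from BE(2)-C minus KELLY, which was 1.34 on the deposited scale and 0.43 centred. BE(2)-C and SK-N-AS, the neighbours at the top, differed by 0.30 (95% interval from 0.12 to 0.48, adjusted p = 0.00287).

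A further call of TCF7L2 was close to the limit. KELLY minus SK-N-AS was -1.04 (SE 0.09, adjusted p = 2.26e-11), but -0.99 without SK-N-AS replicate 3, -0.98 without KELLY replicate 3 and 0.07 after centring, in each case with no call. The other 3 tested TCF7L2 probe sets were highest in BE(2)-C, at 157 ± 41.4, 375 ± 11.4 and 282 ± 25.3, and lowest in SH-SY5Y, at 23.9 ± 5.03, 33.8 ± 5.55 and 40.3 ± 4.97. These sets had the sign of the brightest set in all 9 of its called pairs.

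TCF7L1, a family member that mostly represses in stem cells, varied least of the 9 genes. Its intensity was 119, 130.02 and 106 in SK-N-AS, against 96.7, 82.1 and 84.6 in NGP, 86.7, 79.9 and 80.4 in BE(2)-C, 54.4, 43.6 and 48.2 in KELLY, and 59.1, 48.5 and 69.2 in SH-SY5Y. The SK-N-AS arrays were highest, NGP overlapped BE(2)-C, and KELLY overlapped SH-SY5Y. Only KELLY minus SK-N-AS, at -1.27 (SE 0.13, adjusted p = 8.05e-10, limma), and SH-SY5Y minus SK-N-AS, at -1.01 (SE 0.13, adjusted p = 4.17e-08), were called. After centring neither was, and SH-SY5Y minus SK-N-AS turned to 0.33. Without SK-N-AS replicate 1, SK-N-AS replicate 2 or SH-SY5Y replicate 2, that pair stood at -0.999, -0.94 and -0.87 and lost its call. The second tested TCF7L1 set had 0 called pairs, and its lowest line was SH-SY5Y.

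AXIN2, a scaffold of the destruction complex and the gene most often read as an output of beta-catenin with TCF/LEF, was dim in all lines. Intensity was 115, 104 and 96.6 in NGP, 31.2, 27.3 and 23.4 in BE(2)-C, 78.0, 89.7 and 78.1 in KELLY, 90.5, 92.3 and 90.3 in SH-SY5Y, with 27.5, 34.3 and 32.8 for SK-N-AS. Every array of NGP, KELLY and SH-SY5Y was above every array of BE(2)-C and SK-N-AS, and the arrays of BE(2)-C and SK-N-AS overlapped. The called pairs were the 6 that set NGP, KELLY or SH-SY5Y against BE(2)-C or SK-N-AS, each at an adjusted p of 1.64e-10 or below (limma), and the widest was NGP minus BE(2)-C at 1.91 (SE 0.12). The 6 calls were kept after centring and were lost when values under 64 were set to 64. Among the brighter lines NGP exceeded SH-SY5Y by 0.20 (95% interval from -0.05 to 0.46), and at the low end SK-N-AS exceeded BE(2)-C by 0.20 (95% interval from -0.05 to 0.46).

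The AXIN2 pattern rested on 1 probe set. Both others were below the test intensity in every line, with line means from 23.7 to 46.4, and only 1 of them was highest in NGP. Averaged over its probe sets, AXIN2 fell below the test intensity and was not tested.

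**Figure D3:**
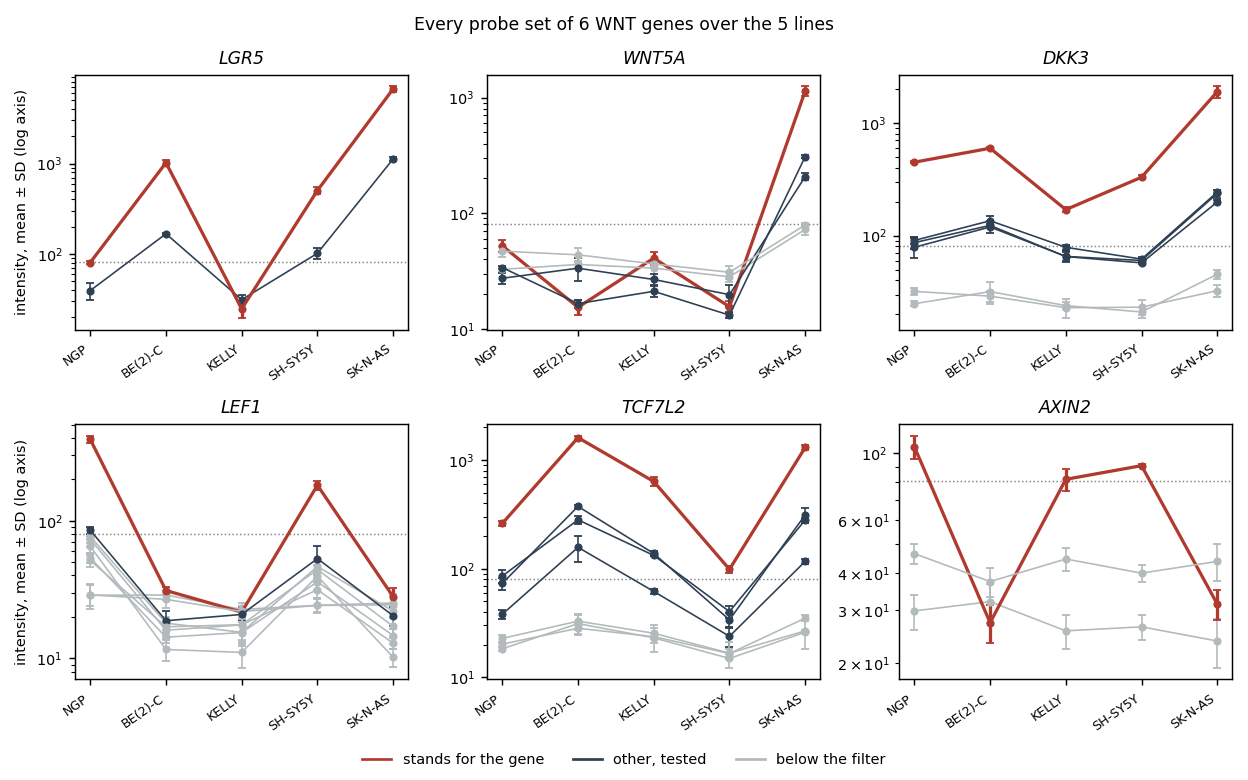
Line means with SD (n = 3 arrays, log axis) of every probe set of LGR5, WNT5A, DKK3, LEF1, TCF7L2 and AXIN2. The set that stands for the gene is red, other tested sets are dark, and sets below the test intensity (dotted line) are grey. Tested sets of a gene share the highest line, and the 2 grey AXIN2 sets are nearly flat.

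Probe sets of a gene can detect different transcripts, and sets ending in _s_at or _x_at can match related ones. Over the 21 tested probe sets of the 9 genes, 126 of 210 differences were called, against 37.2% over all probe sets. Called pairs of a gene's brightest set were never called in the opposite direction by another tested set of that gene. The 18 sets below the test intensity had line means from 10.2 to 79.5. Of those, 6 of 7 for LEF1, 2 of 2 for WNT5A, 2 of 2 for DKK3, 2 of 3 for TCF7L2, 1 of 2 for AXIN2, 1 of 1 for FZD7 and 0 of 1 for TCF7L1 had the same highest line as the brightest set.

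Counted by pair of lines, 7 of the 9 genes were called for NGP minus BE(2)-C (31.4% of all genes), 6 for NGP minus SH-SY5Y (23%), 7 for NGP minus SK-N-AS (43.9%), 7 for BE(2)-C minus KELLY (42.5%), 6 for BE(2)-C minus SH-SY5Y (56.1%) and 5 for BE(2)-C minus SK-N-AS (25.6%). The pair with most calls was SH-SY5Y minus SK-N-AS, where 68.5% of all genes were called, 4.28% higher and 64.2% lower. There LEF1 and AXIN2 were called higher and 6 of the 9 genes lower. After centring, 14.3% of all genes were called higher and 11.5% lower for this pair (25.9% together), and of the 9 genes 3 were called higher and 4 lower. For KELLY minus SK-N-AS, where 54.4% of all genes were called, 5.27% higher and 49.1% lower, AXIN2 was called higher and 6 genes lower. After centring that pair had 15.6% of all genes called higher and 13.5% lower (29.1% together), with 2 of the 9 genes higher and 4 lower. Few genes differed for NGP minus KELLY, with 11.7% called higher and 4.47% lower (16.1% together), and LGR5, DKK3 and LEF1 were called higher and TCF7L2 lower. For KELLY minus SH-SY5Y, with 10.4% of all genes called higher and 5.32% lower (15.7% together), WNT5A and TCF7L2 were called higher and LGR5, FZD7 and LEF1 lower. The median of the 9 genes for KELLY minus SH-SY5Y was -0.61, and that of all genes was 0.25.

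None of the 9 genes separated the 3 amplified from the 2 other lines in all 6 contrasts, which 0.684% of all genes did as higher and 0.346% as lower in the amplified lines. After centring none did either, against 1.12% of all genes in either direction. LGR5 came closest, with 5 of the 6 contrasts called lower in the amplified line and 1, BE(2)-C minus SH-SY5Y, called higher. Its mean was 6.9998 in the amplified lines and 10.84 in the other lines on the log2 scale, a difference of -3.84 (SD of line means 2.73 and 2.64, n = 3 and 2), with p = 0.3 when the 5 line means were permuted exactly (two-sided). No split of 5 lines can reach a p below 0.1 in this test. For the other 8 genes the class difference ran from -2.05 for WNT5A to 0.84 for TCF7L2, with exact p from 0.4 to 1 before any adjustment over genes. WNT5A had 2 contrasts called higher and 3 lower, and LEF1 had 2 called higher and 2 lower.

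Other genes of the pathway came from a list grouped by role. Of 111 genes, 109 had a value and 84 were tested, and 325 of their 840 pair differences were called (38.7%), close to the 37.7% of all genes. A line was marked by 27 of the 84 (32.1%, against 25.5% of all genes), and after centring by 22 (26.2%, against 19% of all genes). The counts by role below are on the deposited scale, each with its count after centring, and no group was tested against all genes. Of the 9 tested ligands, 0 marked a line (1 after centring). Of their 90 differences, 22 were called (24.4%, against 37.7% of all genes), and 9 after centring (10%, against 20.8%). WNT10B, a canonical ligand, read 143 ± 13.4 in SK-N-AS, against 45.7 ± 3.67 to 89.7 ± 1.27 in the other lines. WNT5B, close to WNT5A in sequence, had another order of lines, with 160.1 ± 11.7 in BE(2)-C, 54.3 ± 5.94 in SH-SY5Y, and 101 ± 1.44 for SK-N-AS. WNT6 was similar in BE(2)-C and SK-N-AS, at 178 ± 8.43 and 173 ± 5.67. The widest pairs of these 3 ligands lost their calls after centring. WLS, which carries WNT proteins to the cell surface, was lowest in SH-SY5Y at 145 ± 6.51, against 485 ± 35.1 to 1125 ± 49.4 in the other lines. It marked SH-SY5Y as lower on the deposited scale, and after centring it marked no line.

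Among 18 tested Frizzled and co-receptor genes, 8 marked a line (6 after centring), beside 25.5% of all genes (19% after centring). Of the 18, 4 marked SK-N-AS as higher (2 after centring), beside 12.6% of all genes (5.61% after centring). FZD6 read 1285 ± 130 in SK-N-AS, against 87.3 ± 14.2 to 339 ± 4.39 in the other lines. VANGL1, a planar polarity protein, read 1031 ± 78.0 in SK-N-AS, against 35.3 ± 5.53 to 159 ± 13.96. ROR2, a receptor of WNT5A, was lowest in SK-N-AS, at 64.5 ± 3.15, where WNT5A was highest, and highest in BE(2)-C, at 1243 ± 50.9. BE(2)-C minus SK-N-AS was 4.25 for ROR2 (SE 0.08, adjusted p = 1.34e-23, limma) and -6.13 for WNT5A (SE 0.13, adjusted p = 8.77e-23).

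In the R-spondin arm, which acts through LGR5 and its relatives, 5 genes were tested and 2 marked a line (3 after centring). Of all genes, 25.5% did so (19% after centring). RSPO3, a ligand of LGR5, read 170.4 ± 3.97 in SK-N-AS, the line with the most LGR5, against 18.6 ± 2.10 to 24.3 ± 2.93 in the others. RSPO2 read 121 ± 5.90 in NGP, against 18.7 ± 4.45 to 25.8 ± 1.33 in the others. LGR4, a related receptor, was not ordered like LGR5, with 112 ± 7.86 in NGP and 41.8 ± 6.54 in SK-N-AS. Its difference of NGP minus SH-SY5Y was 1.61 (SE 0.13, adjusted p = 2.97e-11, limma).

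Among 7 tested inhibitors, 4 marked a line (3 after centring), beside 25.5% of all genes (19% after centring). SFRP1, which binds WNT ligands outside the cell, was highest in BE(2)-C like DKK1, at 1715 ± 69.7, against 202 ± 9.598 in SH-SY5Y to 680.3 ± 29.5 in NGP. SOSTDC1 read 228 ± 15.9 in BE(2)-C and 164 ± 1.73 in KELLY, while SH-SY5Y had 25.8 ± 4.55 and SK-N-AS 31.4 ± 8.71. TPBG, a surface protein that dampens canonical WNT signalling, read 3918 ± 160 in SK-N-AS, against 19.4 ± 3.11 in KELLY to 87.2 ± 12.5 in NGP. With LGR5, it marked SK-N-AS as higher and KELLY as lower on the deposited scale. LGR5 kept both marks after centring, while the centred marks of TPBG are not given here.

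Inside the cell, 4 of 21 relay genes (3 after centring) and 3 of 14 nuclear partners (2 after centring) marked a line. These shares, 19% and 21.4% on the deposited scale, lay below the 25.5% of all genes (19% after centring). DACT1, a partner of the Dishevelled proteins, was highest in NGP as LEF1 was, at 232 ± 1.96, against 20.6 ± 1.84 in BE(2)-C to 55.3 ± 1.89 in SK-N-AS. DAAM1, a formin of the planar polarity branch, read 1378 ± 152 in SK-N-AS, against 221 ± 7.38 to 298 ± 93.9 in the others. CBY1, which binds beta-catenin, read 678 ± 30.03 in BE(2)-C and 124 ± 7.37 in SH-SY5Y. The co-repressor TLE1 was lowest in SK-N-AS, at 72.4 ± 1.14, and highest in BE(2)-C, at 1052 ± 57.1. TLE2 was high in both of these lines, at 453 ± 29.3 in BE(2)-C and 428 ± 41.2 in SK-N-AS, against 34.6 ± 6.87 to 41.4 ± 3.24 in the others. BCL9L, a beta-catenin co-activator, likewise read 491 ± 83.2 in BE(2)-C and 538 ± 40.9 in SK-N-AS, against 106 ± 3.43 to 165 ± 15.1. CTNNB1, which encodes beta-catenin, was chosen after its values were seen. On the deposited scale it ran from 3638 ± 242 in SH-SY5Y to 4227 ± 383 in BE(2)-C, with 0 of 10 pairs called (limma). Its 4 differences from SH-SY5Y were at most 0.21 in size, with adjusted p from 0.0214 to 0.0572. The median of the tested genes ran from 7.54 in SH-SY5Y to 8.87 in SK-N-AS (log2), so this narrow range depends on the scale. Centred values of CTNNB1 are not given here.

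Feedback and target genes had 50 of 90 differences called (55.6%, against 37.7% of all genes), and 39 after centring (43.3%, against 20.8%). A line was marked by 5 of the 9 tested, and by 4 after centring, beside 25.5% of all genes (19% after centring). CD44, a surface glycoprotein, read 5769 ± 231 in SK-N-AS, against 20.1 ± 1.10 to 58.6 ± 7.02 in the others. NRCAM, a neuronal adhesion molecule, read 21.9 ± 0.822 in SK-N-AS, against 242 ± 5.28 in KELLY to 4487 ± 318 in BE(2)-C. VCAN, a matrix proteoglycan, was the single gene of the 84 that separated the classes on the deposited scale. As higher in the amplified lines, 0.684% of all genes did so. VCAN read 1093 ± 72.5 (NGP), 312 ± 12.5 (BE(2)-C) and 1566 ± 71.2 (KELLY), against 79.1 ± 4.71 (SH-SY5Y) and 126 ± 21.6 (SK-N-AS). Whether VCAN separated the classes after centring is not given here. None of CD44, NRCAM and VCAN had the order of lines of AXIN2.

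**Figure D4:**
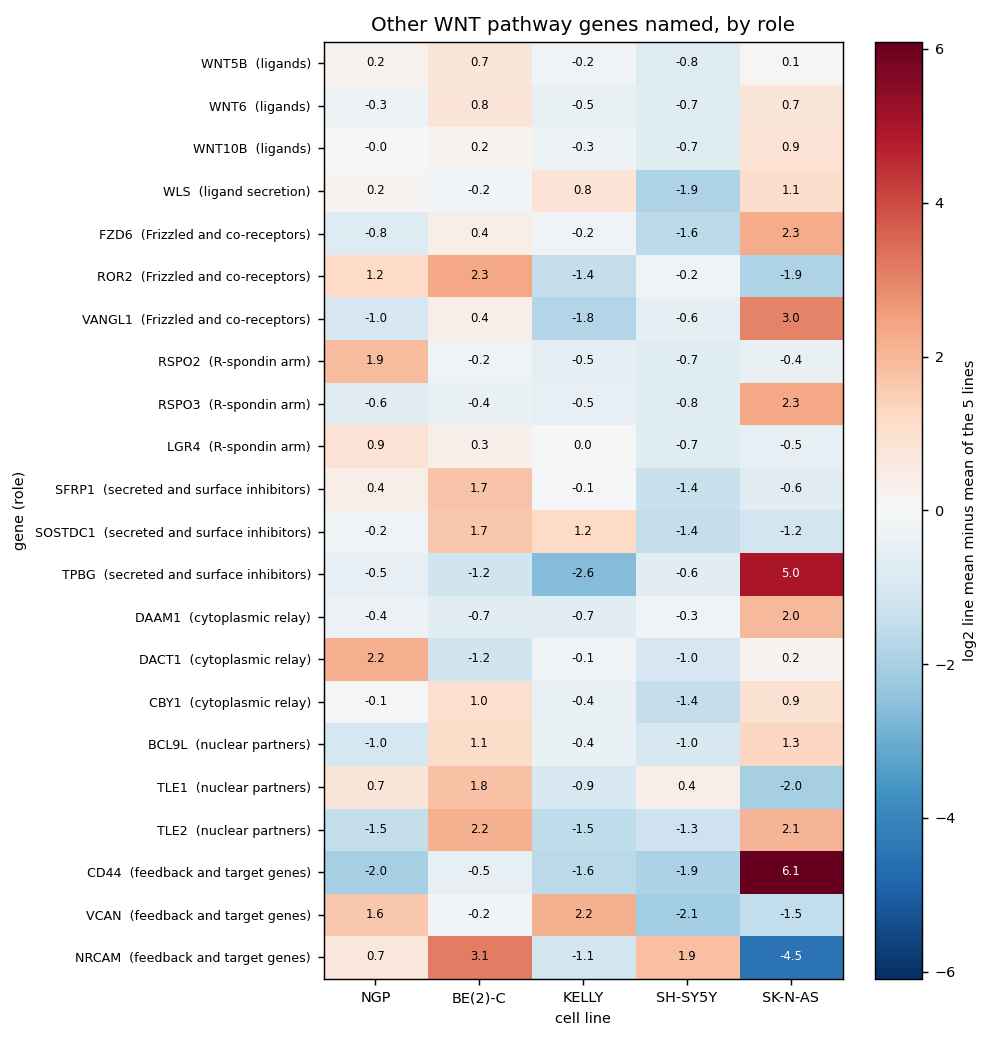
Line means of the 22 other WNT pathway genes named, each minus the mean of its 5 lines (log2 scale of the deposited intensity plus 1), with roles in brackets. CD44 and TPBG stand out as high in SK-N-AS and NRCAM as low there.

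For each of the 7 WNT genes that spanned at least 2 on the log2 scale, the 2 most similar profiles among the tested genes were found by the root-mean-square difference of the log2 values, each gene centred on its mean, over the 15 arrays. The 15 arrays come from only 5 lines, so such likeness describes 5 levels. DKK3 was matched most closely by LIMS1 and E2F7, at 0.16 and 0.17, and LEF1 by CDO1, at 0.16, followed by GATM, at 0.48. CDO1 read 282 ± 6.43 in NGP, against 26.2 ± 2.61 in BE(2)-C, 19.8 ± 1.65 in KELLY, 144 ± 6.92 in SH-SY5Y, with 22.2 ± 2.72 for SK-N-AS. FZD7 was nearest to ZNF792, at 0.28, and BAMBI, at 0.40. TCF7L2 was nearest to P4HTM, at 0.30, and SOX9, at 0.39.

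WNT5A was nearest to ATP2B4 and SPRY1, at 0.36 and 0.39, both brightest in SK-N-AS at 4166 ± 267 and 4051 ± 237. DKK1 was nearest to PRRT4 and RETREG1, at 0.35 and 0.39. LGR5 had the loosest matches, MT2A at 0.69 and LGALS1 at 0.83. MT2A, a metallothionein, read 11005 ± 620.4 in SK-N-AS, against 331 ± 17.8 in NGP, 1779 ± 88.7 in BE(2)-C, 75.9 ± 8.98 in KELLY and 562 ± 59.4 in SH-SY5Y, the order of lines of LGR5.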

How the data were processed

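Total RNA of 15 samples, 3 from each of 5 lines, was labelled with biotin from 100 ng per array, with ERCC controls added at lysis, per the labels' protocols. The authors deposited linear intensity values, 1 per probe set and array. Per the submitters' processing notes MAS5 was used. Its version, background correction and scaling: not given in the sources used here. The table held 49494 probe sets, of which 45277 named 1 gene in the platform annotation, 1333 several, 2682 none and 202 were controls, 100 of them ERCC.

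The brightest 1-gene probe set stood for a gene (18244 genes). Testing was limited to the 12721 genes whose highest line mean reached the median over all values (log2 of 6.35). In R 4.3.3, limma 3.58.1 fitted 1 mean per line to log2(intensity + 1), with a prior variance that depends on intensity, all 10 pairs were contrasted and p-values were adjusted over all tested genes within a pair. Differences on this scale understate the change of dim genes, and the number of arrays limits precision. All tested 1-gene probe sets (29563) were fitted in the same way. Differences are the earlier minus the later line in the order NGP, BE(2)-C, KELLY, SH-SY5Y, SK-N-AS.

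The genes and lists were chosen with earlier results of these data known. Of each role the 3 tested genes with the widest range and a called pair were named, beside the listed genes, the 2 most similar profiles and the class check. Alternatives changed the scaling, pseudocount, floor, filter, probe set, prior variance, replicate block and arrays. The calls were tested on simulated data.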

Additional observations from a re-analysis of the deposited data

How the results depend on the processing

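Calls of the 9 genes numbered 62 on the deposited scale, 61 to 62 when any 1 array was left out, and 49 to 62 under the other alternatives except averaging of probe sets, which gave 33 with 7 genes tested (LEF1 and AXIN2 fell below the filter). The marks stayed at 8 without any 1 array, were 6 after centring, fell to 5 under quantile normalization and to 3 with averaged probe sets, and 0 genes separated the classes under every alternative run. After centring 5 of the 8 marks were kept, those of DKK1 (BE(2)-C), LEF1 (NGP) and TCF7L2 (SH-SY5Y) were lost, and 1 was gained, WNT5A as lower in BE(2)-C, where its intensity was at the background. Over all genes, 47979 calls became 26521 after centring and 26023 under quantile normalization, against 47085 to 48467 without any 1 array. Centring on ERCC sets instead left 45741 calls over all genes (36%). Of the 9 genes it called 60 differences, 59 of them shared with the deposited scale, and the marks stayed at 8. The share of higher calls over all genes was 43.9% on the deposited scale, 50.8% after centring, 51.5% under quantile normalization and 39.7% with ERCC centring.

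After centring, the sign turned for LGR5 BE(2)-C minus SH-SY5Y (-0.11), DKK1 NGP minus SK-N-AS (0.042), DKK3 NGP minus BE(2)-C (0.20), NGP minus SH-SY5Y (-0.076) and BE(2)-C minus SH-SY5Y (-0.28), and LEF1 BE(2)-C minus KELLY (-0.41) and KELLY minus SK-N-AS (0.76). It also turned for TCF7L1 NGP minus SK-N-AS (0.39), BE(2)-C minus KELLY (-0.16), BE(2)-C minus SH-SY5Y (-0.64) and SH-SY5Y minus SK-N-AS (0.33), TCF7L2 KELLY minus SK-N-AS (0.072) and AXIN2 NGP minus SH-SY5Y (-0.31). Quantile normalization turned 10 of these pairs, at -0.24 for LGR5, 0.15 for DKK1, 0.30, -0.076 and -0.37 for DKK3, 0.24 (NGP minus SK-N-AS), -0.39 (BE(2)-C minus SH-SY5Y) and 0.15 (SH-SY5Y minus SK-N-AS) for TCF7L1, 0.24 for TCF7L2 and -0.32 for AXIN2. Of the turned pairs, 3 had been called, namely LGR5 BE(2)-C minus SH-SY5Y, TCF7L1 SH-SY5Y minus SK-N-AS and TCF7L2 KELLY minus SK-N-AS. WNT5A BE(2)-C minus SH-SY5Y turned to 0.37 with averaged probe sets, and to 0.068 and 0.086 without SH-SY5Y replicate 2 and without BE(2)-C replicate 2. Without sets ending in _s_at or _x_at, LEF1 turned in BE(2)-C minus KELLY (-0.15), BE(2)-C minus SK-N-AS (-0.12) and KELLY minus SK-N-AS (0.036). The cause of these changes was not tested.

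With the replicate number as a block, 62 calls were made, all 62 shared with the fit without it. Deviations of arrays with the same number correlated at -0.02 on average (-0.23 to 0.23 over 30 pairs), and those with different numbers at 0.01. No effect shared by a replicate number was seen, and whether the arrays were handled in matched sets is not given. Low intensities limit AXIN2, TCF7L1 and the dim lines of WNT5A, LEF1 and LGR5, where differences lie near the background.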
